A study of Homo sapiens with 6 samples.

Results

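The 77 genes described here carry the symbols MRPL or MRPS followed by a number, and their products are proteins of the mitochondrial ribosome. By a rule that used no measured value, they were taken by symbol from a table of 50868 genes. Earlier results of these data were known when they were chosen. 48 of them are named for the large subunit (MRPL) and 29 for the small subunit (MRPS). RNA sequencing of total RNA had been done in 6 libraries of Huh7, an established human hepatoma cell line. In 3 of them the cells had received a plasmid for overexpression of the circular RNA hsa_circ_0098181 (the overexpression group), and in the other 3 a control plasmid. Both groups were transfected with Lipofectamine 2000 and RNA was taken after 48 hours, so both carry the effects of transfection itself. The labels give no other treatment and do not say whether replicates were separate cultures, so p-values measure the spread between these samples, which may be technical.

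The mitochondrial ribosome translates the few proteins encoded by mitochondrial DNA, all of them subunits of the oxidative phosphorylation complexes. Its RNAs are made inside the organelle, while its proteins are encoded in the nucleus, made in the cytosol and imported. The small subunit holds the messenger RNA and reads the codons, and the large subunit joins the amino acids and lets the new chain out at the inner membrane. Symbols do not always give the place of a protein: MRPS30 and MRPS18A were found in structures of the large subunit, and MRPS36 has since been assigned to the 2-oxoglutarate dehydrogenase complex. Liver cells are rich in mitochondria, and hepatoma cells keep this machinery.

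The libraries held 11130902 to 14138262 gene counts, and the 77 members took 0.353% to 0.447% of them. Summed over the libraries, a member had 604 to 16533 counts, and the lowest count of any member in any library was 48. SOX5, the host gene of the circle, had 26907, 33577 and 24906 counts in the overexpression group against 453, 404 and 380 in the control group, which fits the labels. All 10 hepatocyte and hepatoma markers were present, with a summed level of 32200 to 38300 CPM (counts per 1e+06 counts of the library, after TMM scaling), against 62.6 to 76.2 CPM for 9 markers of other cells. Most of the latter sum came from the endothelial marker PECAM1, which had 46.9 to 59.1 CPM. 2 libraries stood apart in the members. Overexpression replicate 1 was the highest of the 6 libraries for 40 of the 77 members, and control replicate 1 the lowest for 46. Over all 15055 genes tested these libraries were highest and lowest for 19.1% and 26.5%. Control replicate 1 also had the largest share of counts from mitochondrial DNA, 9.295%, where the other 5 libraries had 6.322% to 7.043%. Subunit medians, and some values of other groups and single genes, are therefore also given without 1 or both of these libraries.

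Members lay on 21 chromosomes and 47 of them overlapped another annotated gene. For 28 members an overlapping gene held more than 10% as many counts as the member. Promoters of the members shared short sequence motifs that the choice by symbol did not use. A 300-base promoter, from 250 bases before to 50 bases after the gene start (RefSeq, GRCh38.p14), was found for 68 of the 77 members. The letters AAGATGGC, the core recognised by the factor YY1, stood on either strand in 20 of the 68 promoters (29.4%), against 5.39% of 9811 promoters of tested protein-coding genes and 3.03% of all 27305 promoters. In 15 of these 20 promoters a match lay after the gene start. The letters CCGGAAG, a core of ETS family factors such as GABPA, were in 28 promoters (41.2%). Tested protein-coding promoters held them in 19.27% and all promoters in 10.67%. The letters GCATGCGC, a core of NRF1, a regulator of many mitochondrial genes, were in 6 promoters (8.8%), against 5.5% and 3.27% of these backgrounds. Promoters of cytosolic ribosomal protein genes held the YY1, ETS and NRF1 cores in 11.9%, 34.3% and 4.5%, and those of nuclear-encoded respiratory chain subunits in 15.7%, 29.4% and 17.6%. These differences between gene groups were not tested. The ETS and YY1 cores share the letters AAG and can overlap there. A match describes the letters and does not show binding.

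Promoters with the YY1 core are shown first, because its share in the members was the furthest, in ratio, from that in tested protein-coding genes. Each 30-base stretch runs 5′ to 3′ along the gene's own strand with the core in capitals. The examples shown all have the core on that strand and after the gene start. Of the 20 promoters with it, 16 held it on the same strand and 4 on the opposite strand. The genes are MRPL42 (chr12:93467511-93467540, plus strand), MRPL46 (chr15:88467362-88467391, minus strand), MRPL51 (chr12:6493223-6493252, minus strand), MRPS10 (chr6:42217834-42217863, minus strand), MRPS30 (chr5:44808949-44808978, plus strand) and MRPS7 (chr17:75261887-75261916, plus strand).
MRPL42: aggattgaaacAAGATGGCgggttcgtggt
MRPL46: tgggagaacgaAAGATGGCggcgcccgtaa
MRPL51: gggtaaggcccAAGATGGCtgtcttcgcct
MRPS10: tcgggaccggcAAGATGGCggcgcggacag
MRPS30: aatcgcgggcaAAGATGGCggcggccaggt
MRPS7: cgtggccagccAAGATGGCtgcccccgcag

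The ETS core is shown for 6 of the 9 members whose groups differed at an unadjusted p under 0.05. It stood on the opposite strand in MRPS16 (chr10:73252621-73252650, minus strand), MRPS21 (chr1:150293857-150293886, plus strand), MRPS34 (chr16:1773145-1773174, minus strand) and MRPL28 (chr16:370513-370542, minus strand), where the capitals therefore read CTTCCGG. It stood on the same strand in MRPL33 (chr2:27771700-27771729, plus strand) and MRPL53 (chr2:74472734-74472763, minus strand). The last line gives the NRF1 core of MRPS18B (chr6:30617806-30617835, plus strand), whose promoter also held the YY1 core.
MRPS16: cggatcatccgCTTCCGGagtcgaggtttt
MRPS21: tagtgagaaccCTTCCGGtgggctaggtac
MRPS34: gacaccggcctCTTCCGGtgacttccggcc
MRPL28: cggcagatcggCTTCCGGttccggtgggct
MRPL33: cgggccgtgccCCGGAAGcagttgttgttg
MRPL53: gcagccggcggCCGGAAGtctatcccgcag
MRPS18B: agtttcctgaaGCATGCGCagttgcctttc

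All 77 members were expressed well enough to be tested. Their mean level ran from 7.87 to 217 CPM with a median of 45.8 CPM. Levels of different genes were compared per length, as CPM per kb of merged exon. MRPS34, a small subunit protein, was the highest on this scale with 91.4 ± 8.61 CPM per kb (SD, n = 6 libraries). It was followed by MRPL11, which helps to build the base of the stalk where translation factors bind, with 85.3 ± 18.1, and by MRPL51 with 73.1 ± 12.7 CPM per kb. MRPS35 (69.0 ± 10.8), MRPL12 (66.2 ± 10.1), the protein of the stalk itself, and MRPS26 (57.8 ± 4.69 CPM per kb) came next. The lowest large subunit genes were MRPL23, at the exit of the peptide tunnel, with 2.93 ± 0.725, MRPL46 with 4.37 ± 0.524 and MRPL42 with 4.66 ± 0.363 CPM per kb. The lowest small subunit genes were MRPS22 (6.28 ± 0.546), MRPS11 (6.45 ± 0.860) and MRPS17 (6.60 ± 1.54 CPM per kb). MRPS17 lies within GBAS on the same strand, which held 2086 counts against its 1077, so reads may be split between them. The median level was 16.7 CPM per kb over the large subunit and 13.9 over the small. Proteins of one particle thus came from RNAs whose levels per length spread over more than an order of magnitude, but neighbours in this order were not separable: in 0 of the 76 neighbouring pairs did the ranges over the 6 libraries part. The merged exon counts every annotated transcript form, so a gene with long forms that are little used is placed too low. The authors' FPKM, which rests on another length per gene, gave a related but different order (Spearman's rho of 0.93 over the 77 members, a description). Its mean was highest for MRPS26 with 57.7 FPKM, then MRPL11 (43.6), MRPL12 (41.4) and MRPL24 (40.6 FPKM), and MRPS34 came 10th with 31.0 FPKM. The lowest large subunit genes by FPKM were MRPL55 (1.61), MRPL23 (2.21) and MRPL36 (2.91). MRPL46 (3.19) and MRPL42 (3.51 FPKM) were not among these 3 but were still low. MRPL11 and MRPL12 were thus near the top on both scales, and MRPL23, MRPL42 and MRPL46 near the bottom, while MRPS34 changed place.

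**Figure D1:**
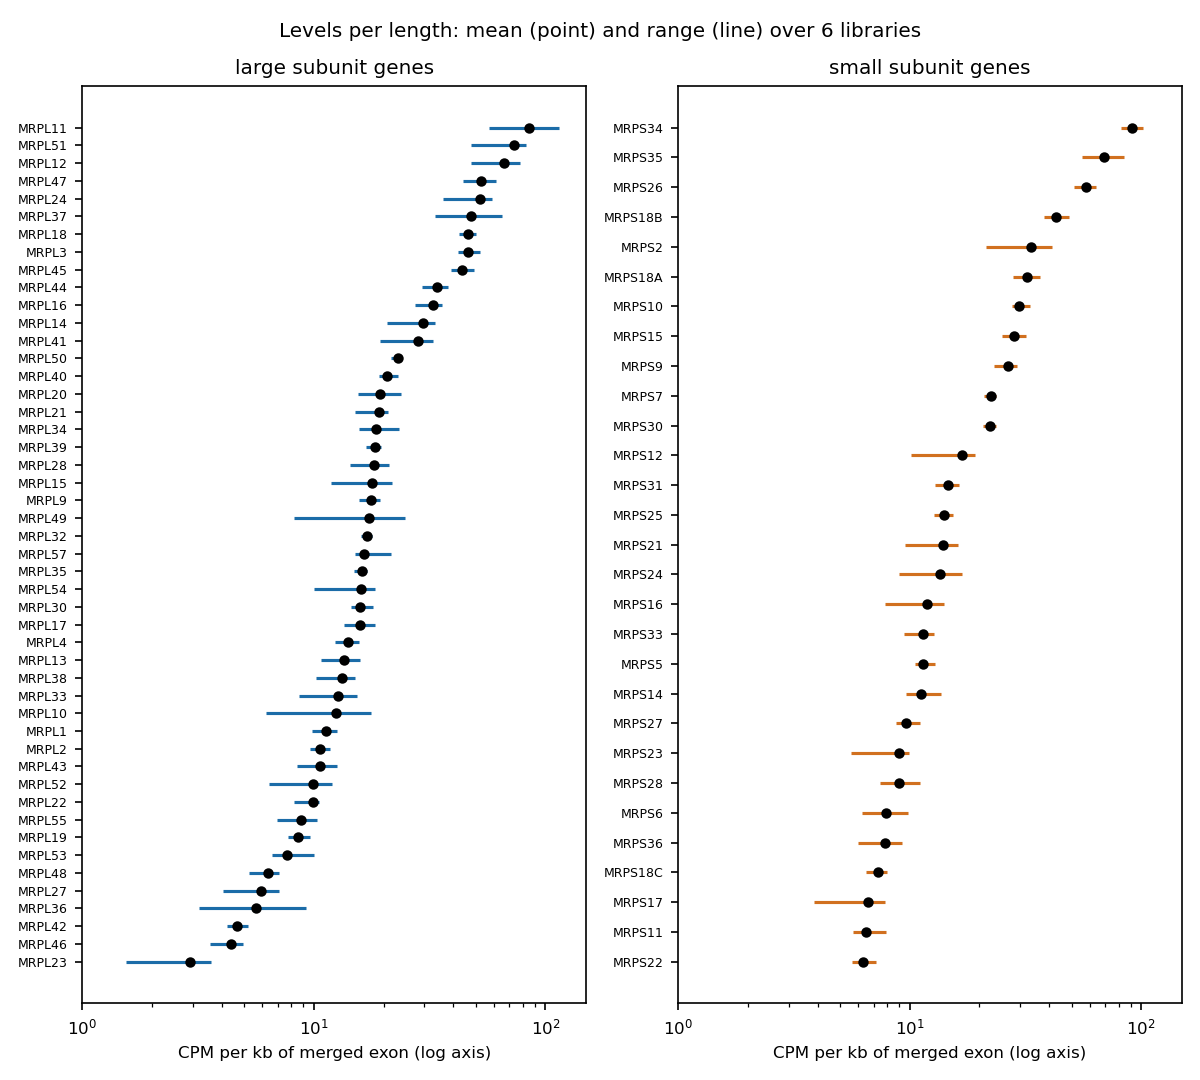
Level of each of the 48 large subunit genes (left) and 29 small subunit genes (right) in CPM per kb of merged exon on a log axis. Points are means and lines the range over the 6 libraries. Over both subunits the order runs from 91.4 (MRPS34) and 85.3 (MRPL11) down to 2.93 CPM per kb (MRPL23), and in this joint order neighbouring ranges overlap. Within the right panel some neighbours part, such as MRPS26 (51.1 to 63.9) and MRPS18B (38.0 to 48.6 CPM per kb).

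The comparison of the overexpression group with the control asked whether the RNAs of these genes differed between the groups. No member passed an adjusted p of 0.05 in edgeR's quasi-likelihood test, and the lowest adjusted p of any member was 0.797. Of all 15055 genes tested, 6 passed, which is 0.0399%. DESeq2 also called 0 members. At an unadjusted p under 0.05, 9 members were higher with overexpression and 0 were lower, against 2.42% of all tested genes higher and 3.08% lower. In either direction, DESeq2 had 8 members under this level, and edgeR 3 without overexpression replicate 1 and 4 without overexpression replicate 3. MRPL43 was among the 3 in edgeR's test and was lower (log2 fold change of -0.38, unadjusted p of 0.0436). The 9 were MRPL13, MRPL28, MRPL33 and MRPL53 of the large subunit and MRPS14, MRPS16, MRPS21, MRPS34 and MRPS35 of the small subunit. All 9 fail the correction over the genes tested.

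Most members lay slightly higher with overexpression. The fitted difference was above 0 for 40 of 48 large subunit genes, with a median log2 fold change of 0.12, and for 25 of 29 small subunit genes, with a median of 0.11. Over all tested genes 7601 were higher and 7454 lower, with a median of 0.0023. Without control replicate 1 the medians were 0.07 for the large subunit, with 37 of 48 genes higher, and 0.12 for the small subunit, with 23 of 29 higher. Without both overexpression replicate 1 and control replicate 1 they were 0.02, with 30 of 48 higher, and 0.08, with 20 of 29 higher. The large subunit median thus fell from 0.12 to 0.02 when these libraries were left out, and that of the small subunit changed less. The median standard error of a single member's log2 fold change was 0.13, which describes single genes and not the medians.

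**Figure D2:**
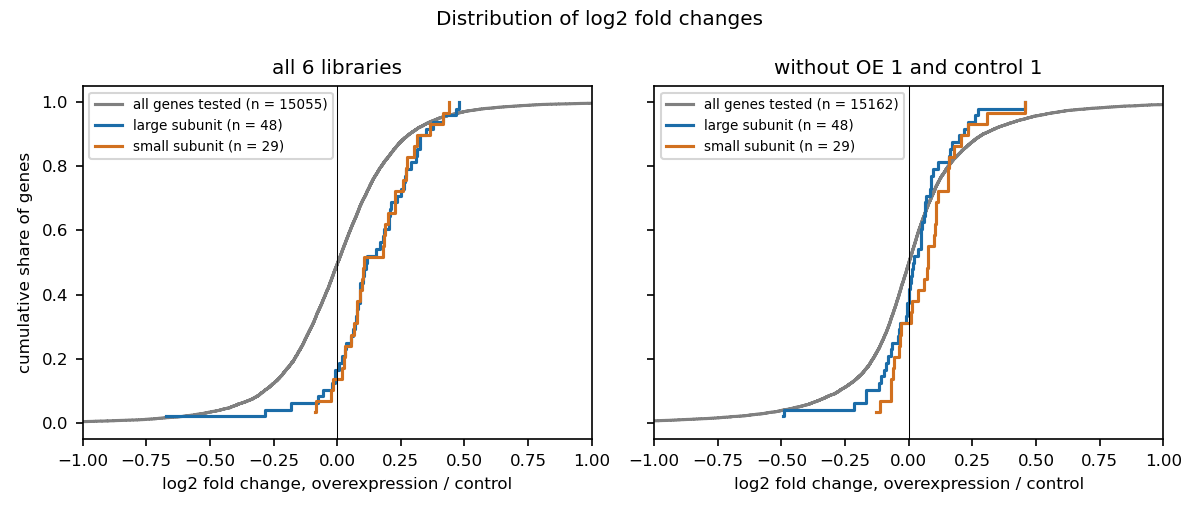
Cumulative share of genes against log2 fold change (overexpression over control) for the large subunit (48 genes), the small subunit (29) and all genes tested, with all 6 libraries (left) and without overexpression replicate 1 (OE 1) and control replicate 1 (right). Both subunit curves lie to the right of all genes on the left, with medians of 0.12 and 0.11, and nearer to them on the right, with medians of 0.02 and 0.08.

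Most members shared the same extreme libraries. Each member's log2 CPM was set against its own mean over the 6 libraries, and the median of these deviations was taken over the members. For the large subunit it was 0.17, 0.04 and 0.03 in the overexpression libraries and -0.24, -0.0012 and -0.00040 in the control libraries, each in replicate order. For the small subunit it was 0.15, 0.03 and 0.09 against -0.16, -0.06 and 0.02. Control replicate 1 was thus the low end and overexpression replicate 1 the high end, with the other 4 libraries between them. Of the 77 members, 67 lay above their own mean in overexpression replicate 1 and 17 in control replicate 1, while the other libraries had 30 to 55 above. MRPL37, MRPL49 and MRPS10 were among the 17, and MRPL49 was also far below its mean in overexpression replicate 1. The pooled SD of these medians within groups was 0.11 for the large subunit and 0.08 for the small.

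**Figure D3:**
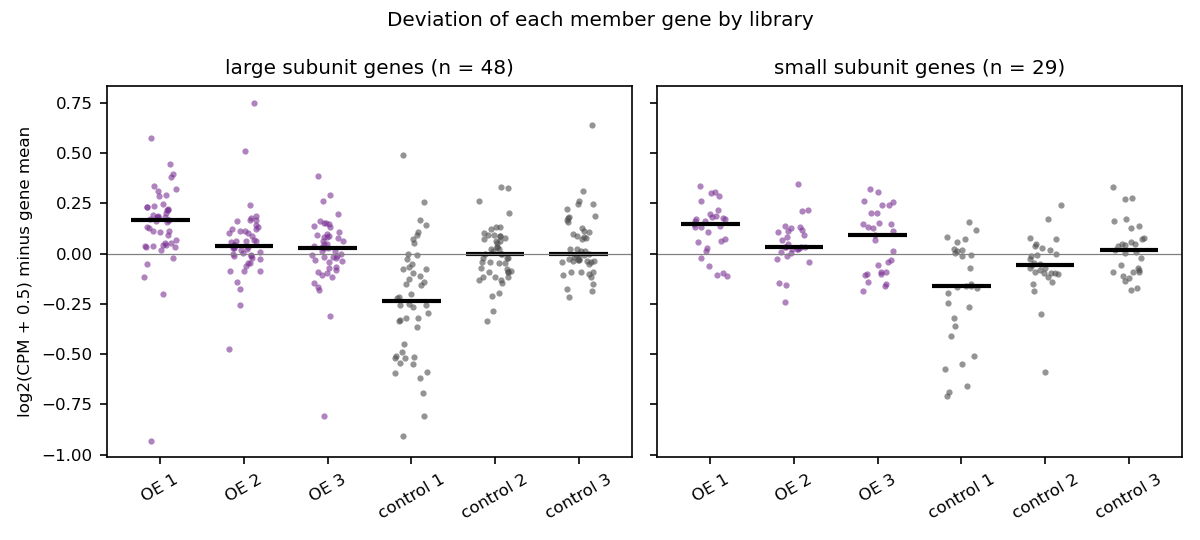
Deviation of each member's log2(CPM + 0.5) from its mean over the 6 libraries, for large subunit genes (left) and small subunit genes (right). Points are genes and bars medians; OE is overexpression. Control 1 has the lowest medians (-0.24 and -0.16) and OE 1 the highest (0.17 and 0.15).

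Summed over its genes, the large subunit had 2740, 2481 and 2449 CPM with overexpression, against 2151, 2432 and 2506 CPM in the control libraries. These groups overlapped, since control replicate 3 lay above overexpression replicates 2 and 3. The small subunit had 1731, 1685 and 1661 CPM against 1475, 1528 and 1616 CPM, with every overexpression library above every control library. The summed nuclear-encoded respiratory chain subunits were separated in the same way (7329, 7001 and 7159 against 5451, 6704 and 6678 CPM). Those of cytosolic ribosomal protein genes overlapped (33202, 30195 and 29996 against 23208, 30038 and 28135 CPM). The ratio of the large to the small subunit sum was 1.583, 1.472 and 1.474 with overexpression and 1.458, 1.592 and 1.551 in the control, and the groups overlapped. Fewer RNAs per cell and fewer expressing cells cannot be told apart in such libraries.

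The values of single members show how small the differences were. MRPS16, a small subunit protein conserved from bacteria (ENSG00000182180, chromosome 10, 73248843 to 73252693), had 39.3, 35.8 and 39.1 CPM with overexpression and 21.8, 30.8 and 32.9 CPM with the control. The groups did not overlap, and control replicate 1 was far the lowest. The log2 fold change of MRPS16 was 0.42 (standard error, SE, 0.16), or 0.26 without control replicate 1. MRPS21 (ENSG00000266472, chromosome 1, 150293720 to 150308979), also conserved from bacteria, had 26.1, 24.2 and 26.6 against 15.6, 20.6 and 23.4 CPM, with the same low control library. The log2 fold change was 0.37 (SE 0.15), and 0.22 without that library.

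MRPS35 (ENSG00000061794, chromosome 12, 27710773 to 27756295), a protein that mitochondria added to the small subunit, had 129.6, 157.3 and 167.4 CPM with overexpression and 128.6, 109.9 and 126.7 CPM with the control. Here control replicate 1 was the highest of its group and overexpression replicate 1 the lowest, the reverse of most members. The log2 fold change was 0.32 (SE 0.12), and it was 0.46 without both of those libraries. MRPS34 (ENSG00000074071, chromosome 16, 1771890 to 1773155), another added protein, had 112, 102 and 111 against 89.4, 93.4 and 94.5 CPM. The groups were apart by 7.16 CPM, and the log2 fold change was 0.23 (SE 0.09), but 0.06 after a correction for length and GC content. MRPS14 (chromosome 1, 175010789 to 175023425), with a bacterial counterpart in the head of the small subunit, had 35.3, 28.3 and 31.6 against 25.1, 26.1 and 27.7 CPM. Its log2 fold change was 0.27 (SE 0.12), or 0.24 without control replicate 1.

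In the large subunit, MRPL13 (ENSG00000172172, chromosome 8, 120380761 to 120445402) had the lowest unadjusted p of all members, 0.0145. Its levels were 66.5, 64.0 and 59.9 CPM with overexpression and 45.1, 51.5 and 55.2 CPM with the control, and the log2 fold change was 0.33 (SE 0.11), or 0.25 without control replicate 1. MRPL28 (ENSG00000086504, chromosome 16, 367384 to 370527) had 64.1, 59.9 and 59.0 against 43.7, 52.4 and 53.5 CPM. The log2 fold change of MRPL28 was 0.29 (SE 0.11), or 0.21 without control replicate 1. MRPL13 and MRPL28 are both conserved from bacteria. In both the overexpression values were close together and the lowest value was that of control replicate 1. MRPL33 (ENSG00000243147, chromosome 2, 27771717 to 27988087) had 22.8, 20.7 and 23.7 against 13.3, 19.0 and 18.0 CPM. Its log2 fold change was 0.41 (SE 0.15), or 0.28 without control replicate 1. MRPL33 lies across BRE, which is on the same strand and held more counts (2120 over the 6 libraries, against 1491), so reads may be split between them. MRPL53 (ENSG00000204822, chromosome 2, 74471958 to 74473322), a mitochondrial addition, had 13.5, 11.1 and 10.4 against 9.14, 8.86 and 8.97 CPM, a log2 fold change of 0.37 (SE 0.15). The 3 control values of MRPL53 were nearly equal, and control replicate 1 was the highest of them. Nearly all of MRPL53 (1337 bases) lies within CCDC142 on the same strand, which had 83, 94 and 113 counts against 53, 46 and 90 (479 in all, against 786 of MRPL53), so reads may be split here too.

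**Figure D4:**
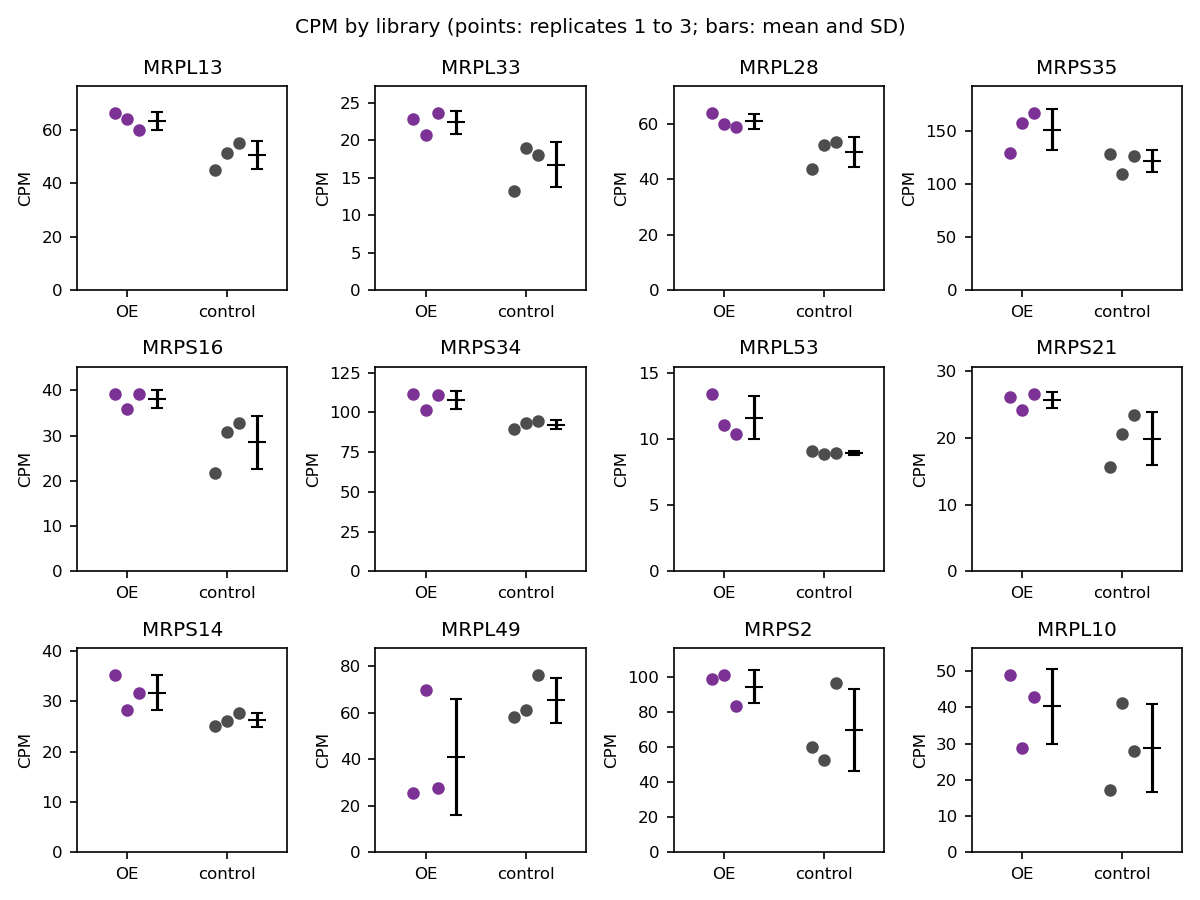
CPM by library for the 9 members at an unadjusted p under 0.05 and for MRPL49, MRPS2 and MRPL10, on linear axes that start at 0. Points are replicates 1 to 3 of each group, and bars the mean and SD. In the first 9 panels the groups do not overlap, while MRPL49 in overexpression replicate 2 (69.8 CPM) lies among the control values.

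The members with the largest fitted values were not those with the clearest separation. MRPL10 (ENSG00000159111, chromosome 17, 47823272 to 47831534), which anchors the stalk, had the highest log2 fold change, 0.48 (SE 0.30). Its levels were 49.0, 28.8 and 42.9 CPM with overexpression and 17.2, 41.2 and 28.1 CPM with the control, and the groups overlapped. Leaving out 1 library moved its log2 fold change between 0.22, without control replicate 1, and 0.83, without control replicate 2, and leaving out both outlying libraries gave 0.05. MRPL36, one of the smallest ribosomal proteins, had 6.44, 12.9 and 8.08 against 4.43, 6.39 and 8.97 CPM, a log2 fold change of 0.47 (SE 0.32). It was 0.13 without overexpression replicate 2, 0.25 without control replicate 1 and 0.76 without control replicate 3. MRPS2 (ENSG00000122140, chromosome 9, 135499984 to 135504673), a small subunit protein conserved from bacteria, had 98.8, 101.3 and 83.5 against 59.9, 52.7 and 96.6 CPM. Only control replicate 3 of MRPS2 lay among the overexpression values, and the log2 fold change was 0.44 (SE 0.21), or 0.75 without that library.

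At the other end, 12 members had a fitted value below 0. MRPL49 (ENSG00000149792, chromosome 11, 65122183 to 65127371), a mitochondrial addition to the large subunit, was the lowest with a log2 fold change of -0.67 (SE 0.36). It had 25.3, 69.8 and 27.6 CPM with overexpression and 58.3, 61.3 and 76.3 CPM with the control. Overexpression replicates 1 and 3 were thus below every control library and overexpression replicate 2 was not. When that replicate was left out the log2 fold change was -1.30 with an adjusted p of 0.0452 in edgeR's test, the one call of a member in any of the fits made. MRPL49 overlaps the genes FAU and SYVN1, both on the opposite strand, and whether counting used strand is not given in the sources used here, so reads from these genes may not be told apart. FAU, which encodes a cytosolic ribosomal protein, had 2076, 1752 and 1751 counts against 881, 1690 and 1690, and SYVN1 1295, 1343 and 1041 against 1209, 1050 and 1136.

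MRPL43 had 38.3, 33.9 and 30.1 CPM against 34.6, 45.0 and 45.0 CPM, a log2 fold change of -0.28 (SE 0.14). Unlike in most members, the difference grew to -0.40 without control replicate 1. It was -0.49 without both outlying libraries, at an unadjusted p of 0.0041 and an adjusted p of 0.771 in edgeR's test. MRPL43 shares its place with SEMA4G and C10orf2 on the opposite strand. MRPL37, another mitochondrial addition, had 144, 84.8 and 112 against 166, 93.4 and 127 CPM. Its spread within each group was wider than the difference between them, and its log2 fold change of -0.18 (SE 0.24) turned to 0.04 without control replicate 1. MRPL3, which reaches towards the catalytic centre, had a log2 fold change of -0.07 (SE 0.10), or -0.0026 without control replicate 1. In the small subunit the 4 values below 0 were small: MRPS10 -0.09 (SE 0.09), MRPS30 -0.08 (SE 0.08), MRPS27 -0.02 (SE 0.11) and MRPS7 -0.02 (SE 0.09). Without control replicate 1 MRPS10 was at -0.03. MRPS30 had 135.6, 136.2 and 128.9 against 145.8, 136.5 and 142.1 CPM and was the one member with every overexpression library below every control library.

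Counted by separation, 19 members had all overexpression libraries above all control libraries, 12 of the large subunit and 7 of the small, which is 24.7% of the members. Of all genes tested, 6.4% were separated in this direction and 6.5% in the other, in which 1 member was found. The share separated upwards was 36.9% of cytosolic ribosomal protein genes (31 of 84) and 20.5% of nuclear-encoded respiratory chain subunits (16 of 78). Upward separation was thus frequent in these groups too, and the differences between groups were not tested. Beside the 9 named above the higher members were MRPL14, MRPL16, MRPL20, MRPL34, MRPL42, MRPL51, MRPL52, MRPL55, MRPS26 and MRPS33. In MRPL34 and MRPL55 the gap between the groups was as small as 0.037 and 0.060 CPM. Without control replicate 1, 22 members were separated upwards and 5 downwards, against 10.3% of 15387 genes in each direction.

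MRPS18A, MRPS18B and MRPS18C are the 3 human copies of a single bacterial protein, and each copy sits in its own place in the particle. MRPS18B had the highest level, 42.7 ± 4.04 CPM per kb (SD, n = 6), then MRPS18A with 32.1 ± 3.50 and MRPS18C with 7.28 ± 0.598, and the ranges of MRPS18C and the other copies were far apart. None of the copies differed between the groups beyond its error. The log2 fold changes were 0.08 (SE 0.13) for MRPS18A, 0.08 (SE 0.11) for MRPS18B and 0.05 (SE 0.12) for MRPS18C, and each turned below 0 in at least 1 alternative fit.

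The 28 large subunit members with a bacterial counterpart and the 20 without one had median log2 fold changes of 0.14 and 0.09. In the small subunit the 17 with a counterpart and the 12 without had medians of 0.10 and 0.18. This division by origin was made by symbol from textbook knowledge, and its differences were not tested. Their order was not stable: without control replicate 1 the medians were 0.07 and 0.08 in the large subunit and 0.1231 and 0.1173 in the small, and without both outlying libraries 0.02 and 0.03, and 0.06 and 0.10. Large subunit genes with and without a counterpart had nearly the same median level, 16.6 and 16.9 CPM per kb, and the small subunit groups had 13.9 and 12.7 CPM per kb. Among the 68 members with a promoter found, those with the ETS core had a median log2 fold change of 0.19 and the others 0.09. For the YY1 core the medians were 0.09 with and 0.13 without. Both of these splits used all 6 libraries only, and their differences were not tested.

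Gene length moved with these values. Among protein-coding genes tested, the shortest tertile by merged exon (up to 3851 bases) had a median log2 fold change of 0.08 and the longest (above 6584 bases) -0.08. In control replicate 1 the median deviation of these classes was -0.10 and 0.09. 60 of the 77 members fell in the shortest class, 15 in the middle class and 2 in the longest. Members in the shortest class had a median of 0.16, higher than the class as a whole, and those in the middle class 0.09 against 0.0031. Without control replicate 1 these medians were 0.07 against 0.05 in the shortest class and 0.04 against 0.0061 in the middle class. When the trend of every library with length and GC content had been removed, the subunit medians were 0.08 for the large and 0.07 for the small, with 33 of 48 and 24 of 29 genes higher. The part of RNA quality or library preparation in this was not tested.

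Other gene groups of the translation and respiratory machinery showed the same libraries at their ends. Of 84 tested cytosolic ribosomal protein genes, 76 were higher with a median log2 fold change of 0.22, and of 78 tested nuclear-encoded respiratory chain subunits, 72 were higher with a median of 0.22. Both medians were above those of the mitochondrial ribosome. Without control replicate 1 they were 0.12 and 0.09. Without overexpression replicate 1 and control replicate 1 they were 0.06 and 0.04, between the 0.02 of the large subunit and the 0.08 of the small. Control replicate 1 had median deviations of -0.36 and -0.32 in these groups. Genes of mitochondrial DNA were taken by the symbol prefix MT-, without dividing messages from other RNAs. These 15 genes went the other way, with 1 higher and a median of -0.17. Without control replicate 1 that median was -0.04, with 5 of 15 higher, and without both libraries -0.11, with 1 higher. These groups were compared on the same 6 libraries, and the differences between them were not tested.

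Around the ribosome itself, 5 further lists of genes were followed, and no gene of them passed an adjusted p of 0.05. 7 proteins of the particle carry other symbols. 4 of these 7 were higher and none was at an unadjusted p under 0.05, with a median log2 fold change of 0.07, or 0.03 without both outlying libraries. AURKAIP1 was the highest of them, with 74.7, 77.1 and 68.2 CPM against 35.2, 66.7 and 63.9 CPM and a log2 fold change of 0.41 (SE 0.22), or 0.17 without control replicate 1. The lowest was OXA1L, the insertase of the inner membrane, with -0.09 (SE 0.08). DAP3, the GTP-binding protein of the small subunit, was level at 148 ± 4.08 and 149 ± 3.19 CPM (SD, n = 3 each).

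Translation factors of the organelle were evenly split, with 9 of 17 higher and a median of 0.00080. MTERF4, which with NSUN4 modifies and assembles the ribosome, had 19.6, 16.1 and 18.9 CPM against 22.0, 22.8 and 30.1 CPM. Its groups did not overlap, and the log2 fold change was -0.46 (SE 0.15) at an unadjusted p of 0.0174 and an adjusted p of 0.797. SLIRP, a stabiliser of mitochondrial messages, was the highest of this list with 0.20 (SE 0.14), or 0.09 without control replicate 1. Of 26 assembly factors 18 were higher, with a median of 0.12, but without control replicate 1 the median was 0.03 with 15 higher. They ran from MALSU1 at 0.34 (SE 0.30), or 0.18 without that library, to METTL15, which methylates the small subunit RNA, at -0.44 (SE 0.26). MRM2, a methyltransferase of the large subunit RNA listed under FTSJ2 in the table, was the one gene of the list at an unadjusted p under 0.05 (0.0405), with a log2 fold change of 0.31 (SE 0.13).

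The 17 mitochondrial tRNA synthetases had 11 higher and a median of 0.07, but without control replicate 1 they had 9 higher and a median of 0.0023. They ran from WARS2 at -0.16 (SE 0.12) to HARS2 at 0.23 (SE 0.15), or 0.09 without that library. Genes of mitochondrial transcription and its regulators had 9 of 14 higher and a median of 0.08, with PPRC1, a coactivator of the PGC-1 family, lowest at -0.15 (SE 0.14), or 0.01 without control replicate 1. MYC, a transcription factor that drives ribosome production, had 2.69, 77.9 and 3.23 CPM with overexpression and 2.77, 2.90 and 5.51 CPM with the control. Its log2 fold change of 2.90 (SE 1.22, unadjusted p of 0.0431, adjusted p of 0.797) rested on overexpression replicate 2 and was -0.34 without it. In that library the median deviation was 0.04 for the large subunit and 0.03 for the small. In overexpression replicate 3 these were 0.03 and 0.09. Whether MYC bears on the members was not tested.

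Replicates differed most in a few members. In 5 of the 77 (6.5%) the highest and lowest library of a group were more than 2-fold apart: MRPL49 (2.75-fold), MRPL10 (2.40-fold), MRPL23 (2.19-fold), MRPS17 (2.03-fold) and MRPL36 (2.02-fold). Among 9709 genes of the same range of levels the share was 5.6%. The standard error of the log2 fold change ran from 0.08 to 0.36 over the members, so a difference of the size of the subunit medians was not detectable in a single gene with 3 libraries in each group.

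**Figure D5:**
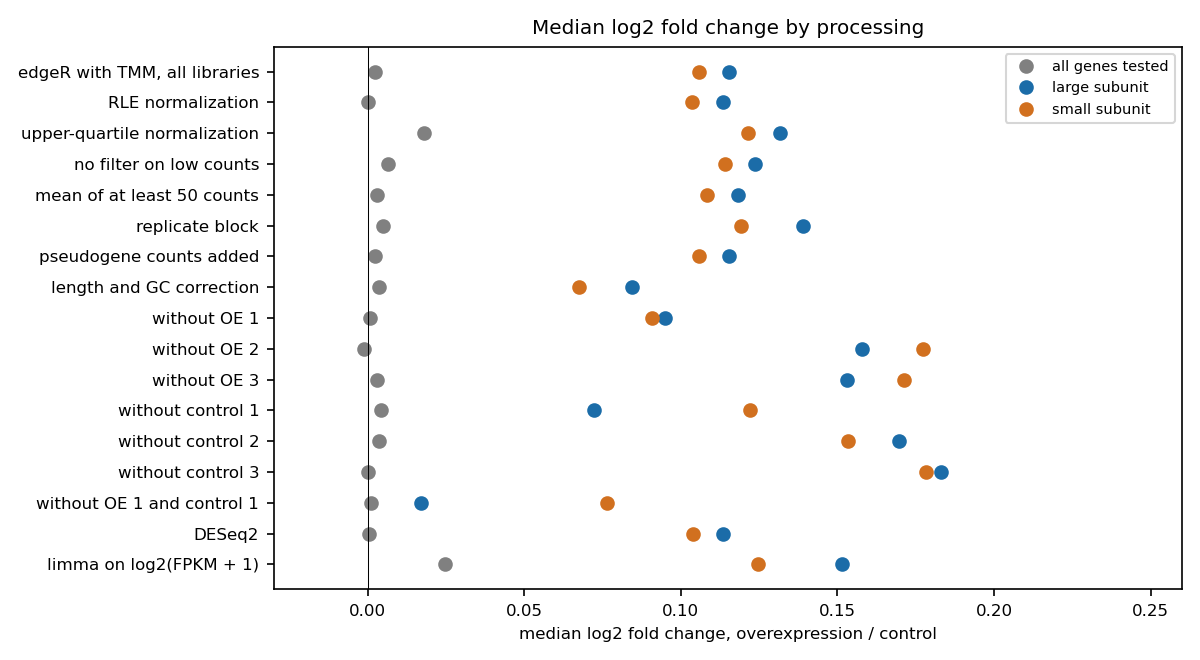
Median log2 fold change of large subunit genes, small subunit genes and all genes tested under each processing alternative; OE is overexpression. All subunit medians are above 0, from 0.02 (large subunit without OE 1 and control 1) to 0.18 (without control 3), while those of all genes lie within 0.025 of 0.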

How the data were processed

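The table that the authors deposited gives, for every gene in every library, raw whole-number counts of reads and the authors' FPKM (reads scaled by gene length and library size). The submitters' processing notes name TopHat2 2.0.9 and hg38, and the counting tool, strand handling and annotation were not given in the sources used here. Coordinates are those of the table, and 76 of the 77 members had the same ones in GENCODE 29, which gave exon lengths. Gene counts do not part near-identical copies: 66 pseudogenes named after members held 1045 counts, 0.339% of the members' own. Most of these counts were in copies of MRPS31. MRPS31P4 held 365 and MRPS31P5 525, which is 15.5% and 22.4% of the 2348 counts of MRPS31. Within groups, chi-square tests showed no duplicated library.

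edgeR 4.0.16 (R 4.3.3) was run on the counts of all genes with filterByExpr at a minimum count of 10, TMM normalization and the quasi-likelihood test, two-sided, with Benjamini-Hochberg adjustment over 15055 genes. The biological coefficient of variation was 16.1%. CPM used TMM library sizes. The test was run on simulated data first. Alternatives were RLE and upper-quartile scaling, DESeq2 1.42.0, other count filters, limma 3.58.1 on log2(FPKM + 1), a replicate block, added pseudogene counts and leaving out each library, and, chosen after seeing the data, a length and GC correction and leaving out 2 libraries.

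Named members were the 4 with the largest and 4 with the smallest log2 fold change and the 3 highest and 3 lowest per length in each subunit, all at an unadjusted p under 0.05, the MRPS18 copies, and the extremes of each pathway list. MRM2, CHCHD1, DAP3 and the further members were named after their values were seen. The members and lists were chosen with earlier results of these data known. Where a promoter had several matches, 1 is shown. Counting intervals cover counting error only, and none is printed.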

Additional observations from a re-analysis of the deposited data

How the results depend on the processing

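The subunit medians stayed above 0 in every alternative, from 0.02 to 0.18 in the large subunit and from 0.07 to 0.18 in the small. With the replicate block the medians were 0.139 and 0.119, and the genes called were 2 higher and 2 lower; same-numbered libraries did not deviate together (correlations -0.0292, -0.012 and -0.0308), so the numbers do not pair them. Over all genes, 4 were called higher and 2 lower. The length and GC correction gave 2 higher, DESeq2 8 higher and 20 lower, and leaving out 1 library 1 to 7 higher and 2 to 9 lower, with fewest higher without control replicate 3 and most of both without overexpression replicate 2. Members called were 0 to 1 when 1 library was left out, the 1 being MRPL49 without overexpression replicate 2 (-1.30). Members at an unadjusted p under 0.05 in either direction numbered 9, but 5 after the length and GC correction. They were 3 to 11 when 1 library was left out, and 3 without overexpression replicate 1 and control replicate 1. MRPL43, which was lower, was among the 5 and among the 3 without both libraries.

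Of 686 values of the 43 named genes, 660 kept their direction and side of the threshold, 25 reversed, and no cause was tested. With the length and GC correction MRPS18A was -0.028 and MRPS27 0.0115. Without overexpression replicate 1 and control replicate 1, MRPL12 was -0.0073, MRPL23 -0.0328, MRPS22 -0.0387, MRPS17 -0.1142, MRPS18B -0.0624, MRPS18C -0.0683, MRPS27 0.0098 and PPRC1 0.038. MRPS7 was 0.0068 with limma. When 1 library was left out, MRPS18A ran from -0.0064 to 0.181, MRPS18B from -0.0027 to 0.166, MRPS18C from -0.0099 to 0.139, MRPL37 from -0.392 to 0.0423, MRPS17 from -0.1931 to 0.229, MRPS27 from -0.143 to 0.039, MRPL46 from -0.0117 to 0.227 and MRPS7 from -0.057 to 0.0321. In the same fits MRPL12 ran up to 0.3084, MRPL23 to 0.5441 and MRPS22 to 0.1547. MYC ran from -0.3401 without overexpression replicate 2 to 3.4386, and PPRC1 from -0.2538 to 0.0115, the latter without control replicate 1. With 3 libraries in each group and standard errors of 0.08 to 0.36, differences as small as the subunit medians could not be called in single genes.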
